A study of Gallus gallus with 4 samples.

Results

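CA4 encodes carbonic anhydrase IV, an enzyme tethered to the outer face of the cell membrane that interconverts carbon dioxide and bicarbonate. In lungs it is known from the capillary endothelium, where blood takes up oxygen and releases carbon dioxide. Endothelial cells of wild-type chicken lung at embryonic day 20 (E20), close to hatching, were divided here by their CA4 transcripts. A cell with at least 3 CA4 UMIs (unique molecular identifiers, each marking 1 captured transcript) was called CA4-positive. A cell with 0 CA4 UMIs was called CA4-negative, and cells with 1 or 2 were set aside. Cells entered an endothelial gate when they had at least 500 detected genes, at most 20% mitochondrial UMIs, 3 or more UMIs summed over KDR, TEK, NOTCH1, EDNRB and TMEM100, no EPCAM UMI, under 5 UMIs of COL1A1 and COL1A2, and under 10% of UMIs from the haemoglobin genes HBBA, HBA1 and HBAD. The cells were thus chosen by measured transcripts of these genes, so CA4 and the gate genes are described without being read as results.

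The gate found 235 CA4-positive and 287 CA4-negative cells among the 4567 barcodes of 1 library, and 303 CA4-positive and 369 CA4-negative cells among the 8341 barcodes of another, of 21613 barcodes in the whole series. The first library came from lung cells depleted of immune cells by their CD45 surface protein and is called the CD45neg library. The second was labelled as epithelial cells and is called the epithelial library. The labels give total RNA for the CD45neg library and nuclear RNA for the epithelial library, and do not say how many embryos were used or whether they were pooled. The series also holds day 13 (E13) multiome data, which are not used here.

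Each comparison was made within a library, between its CA4-positive and its CA4-negative cells, and repeated in the other library. Each library is 1 sample, made from a different cell preparation, so the libraries are shown as separate comparisons and no test was run. The difference between their ratios includes that of the preparations and does not measure the spread of a ratio. Cells were paired on their total UMIs to within 10%, which left 229 cells on each side in the CD45neg library and 292 on each side in the epithelial library. The paired CA4-positive and CA4-negative cells held 799539 and 771588 UMIs in the CD45neg library, with medians of 3184 and 3112 UMIs per cell. Those of the epithelial library held 1452999 and 1376577 UMIs, with medians of 4592 and 4407.5. Levels are in CPM, the UMIs of a gene scaled to counts per 1000000 UMIs of all cells on a side, and ratios are log2 of CA4-positive over CA4-negative after adding 1 CPM. Where a gene has 2 ratios, the CD45neg library's stands before the epithelial library's. Intervals are at the 95% level and cover counting error only. The libraries shared 106 barcodes, of which 1 was a gated cell in both.

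CA4 counts varied widely among the gated cells, and whether its expression is graded or on and off was not tested. In the CD45neg library 36.5% of the 644 gated cells (32.8 to 40.3) were CA4-positive, 18.9% had 1 or 2 CA4 UMIs and 44.6% had 0. In the epithelial library 35.1% of the 864 gated cells (31.9 to 38.4) were CA4-positive, 22.2% had 1 or 2 and 42.7% had 0. The counts showed no gap around 3 UMIs, and the first count without a cell was 22 UMIs in the CD45neg library and 20 in the epithelial library. In the CD45neg library 55 cells had 2 UMIs, 42 had 3 and 43 had over 10, with a highest count of 25. Of the epithelial library's gated cells, 74 had 2 UMIs, 57 had 3 and 68 had over 10, with a highest count of 33. The gene (ENSGALG00000005360, chromosome 19, start 8262292 in the files) stood at 2045 CPM in CA4-positive cells and 0 in CA4-negative cells of the CD45neg library, and at 1572 CPM in CA4-positive cells and 0 in CA4-negative cells of the epithelial library, as the division requires. Collagen cells outside the gate, which should lack CA4, were those with 5 or more UMIs of COL1A1 and COL1A2 and no EPCAM UMI. They also had to have no UMI of KDR, TEK, NOTCH1, EDNRB or TMEM100. Low levels of endothelial genes in them are therefore not read as a result. CA4 stood in them at 4.08 CPM in the CD45neg library and 4.03 CPM in the epithelial library. After thinning to 2000 UMIs per cell, 0.794% and 0.501% of these collagen cells had a CA4 UMI, with the CD45neg library first.

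**Figure D1:**
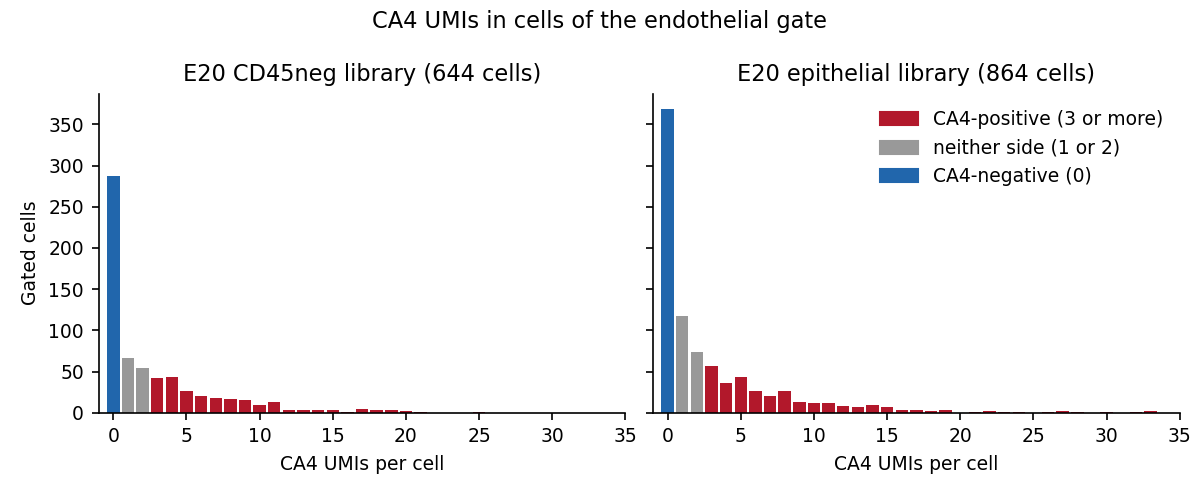
CA4 UMIs per cell (horizontal axis) against the number of gated cells (vertical axis) in each E20 library, coloured by side. In both libraries 0 is the most frequent count, and the cells with 3 or more UMIs continue the slope of those with 1 or 2.

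The endothelial label was checked with PECAM1, CDH5, TIE1, FLT1, EGFL7 and CLDN5, genes of endothelial junctions and signalling that the gate did not use. Summed over these genes, the median CA4-positive cell had 33 UMIs and the median CA4-negative cell 27 in the CD45neg library. The medians of the epithelial library were 41 in CA4-positive and 26 in CA4-negative cells. These medians are over all gated cells, before pairing on depth. Their median depths were 4707 UMIs in CA4-positive and 3885 in CA4-negative cells of the epithelial library. Among paired cells the medians over the check genes were 34 in CA4-positive and 28 in CA4-negative cells of the CD45neg library. In the epithelial library they were 41 and 28. Every CA4-positive cell of both libraries had at least 10 such UMIs, whereas the CA4-negative side had cells with few. In the CD45neg library 0 of 235 CA4-positive and 22 of 287 CA4-negative cells had fewer than 3 of these UMIs, and in the epithelial library 0 of 303 CA4-positive and 38 of 369 CA4-negative cells did. The label therefore fitted the CA4-positive side, and the CA4-negative side contained cells whose endothelial transcripts were few. Cells with few of them gathered at the low end of the gate: gated cells at exactly 3 UMIs of the gate genes had a median of 15.5 in the CD45neg library and 7 in the epithelial library, and cells just outside it at 2 UMIs had medians of 7 and 1. The main counts, the list medians and many of the named genes are therefore given for all gated cells and again for cells with 10 or more UMIs of the check genes, a limit chosen after the data were seen, which left 218 pairs in the CD45neg library and 268 in the epithelial library.

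Markers of other vessels and other cell types were more frequent on the CA4-negative side, and CA4-positive cells carried them too. Arterial markers (2 or more UMIs of GJA5, UNC5B, SEMA3G and CXCL12) were carried by 2.98% of CA4-positive and 16.4% of CA4-negative cells in the CD45neg library. They were carried in the epithelial library by 6.27% of CA4-positive and 19.8% of CA4-negative cells. Lymphatic markers (PROX1, MMRN1 and LYVE1) were carried by 3.83% of CA4-positive and 6.27% of CA4-negative cells in the CD45neg library, and by 1.32% of CA4-positive and 9.49% of CA4-negative cells in the epithelial library. The cells with arterial markers were endothelial by the check genes, with a median of 29 check-gene UMIs in CA4-negative cells of the CD45neg library and 25 in those of the epithelial library. Markers of mural cells (PDGFRB, DES, ACTA2 and MYH11), the contractile cells around vessels, were carried by 2.98% of CA4-positive and 8.36% of CA4-negative cells in the CD45neg library, and by 2.31% of CA4-positive and 7.59% of CA4-negative cells in the epithelial library. The 24 CA4-negative cells with mural markers in the CD45neg library had a median of 1 check-gene UMI, and the 28 in the epithelial library had a median of 9.5. Fibroblast markers (POSTN, ADIPOQ and HTRA1) were carried by 2.55% of CA4-positive and 9.06% of CA4-negative cells in the CD45neg library, and by 10 of 303 CA4-positive and 29 of 369 CA4-negative cells in the epithelial library. Epithelial markers (KRT18 and EXFABP) were carried by 0 of 235 CA4-positive and 3 of 287 CA4-negative cells in the CD45neg library, and by 12 of 303 CA4-positive and 40 of 369 CA4-negative cells in the epithelial library. Immune markers (CSF1R, SPI1, PTPRC, AVD and LAPTM5) were carried by 0 of 235 CA4-positive and 1 of 287 CA4-negative cells in the CD45neg library. In the epithelial library 6 of 303 CA4-positive and 19 of 369 CA4-negative cells carried them, and those 19 had a median of 1 check-gene UMI. Summed over the mural, fibroblast, immune and epithelial sets together, 2 or more UMIs were found in 5.53% of CA4-positive and 12.5% of CA4-negative cells of the CD45neg library, and in 21.1% of CA4-positive and 32.2% of CA4-negative cells of the epithelial library. Neither 2 UMIs of this sum nor 2 of any single set were found in 209 of 235 CA4-positive and 197 of 287 CA4-negative cells of the CD45neg library, and in 223 of 303 CA4-positive and 189 of 369 CA4-negative cells of the epithelial library. These marker sets were assembled after the data were seen and describe what each side contained. UNC5B, SEMA3G, CXCL12 and other members are among the genes counted below as lower, so the shares and those counts are not separate results.

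**Figure D2:**
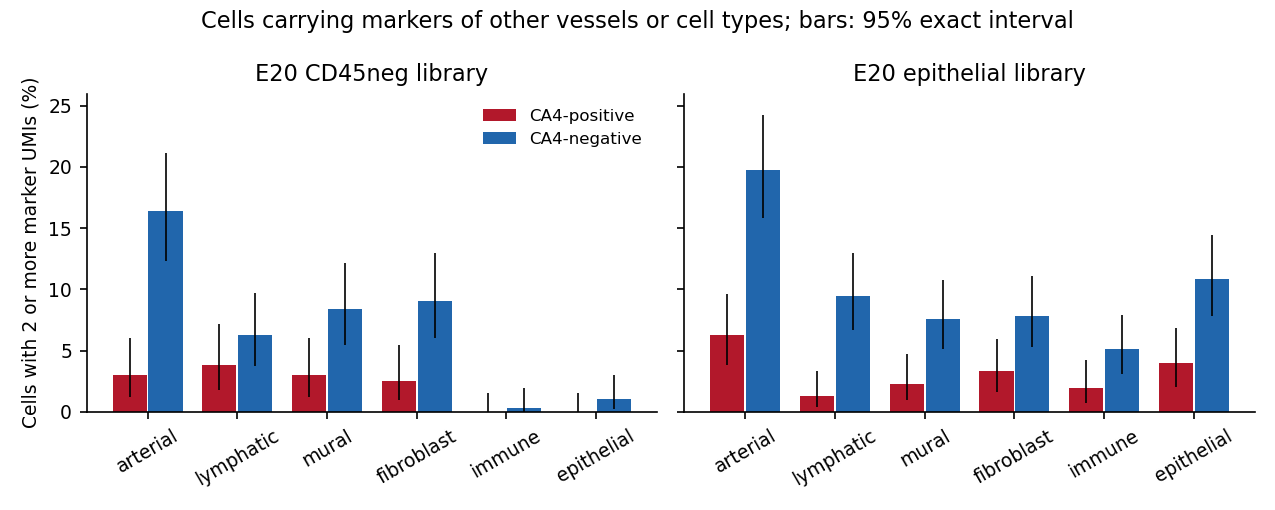
Share of gated cells (vertical axis, in %) with 2 or more UMIs of each marker set (horizontal axis), CA4-positive beside CA4-negative, in each E20 library, with 95% exact binomial intervals. The arterial set shows the widest gap in both libraries, 2.98% of CA4-positive against 16.4% of CA4-negative cells in the CD45neg library and 6.27% of CA4-positive against 19.8% of CA4-negative cells in the epithelial library. This set includes CXCL12, which collagen cells also carried. Of the 7 arterial genes compared, 5 were lower and 2 higher in CA4-positive cells in both libraries.

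Beyond CA4, none of the genes compared was 2-fold higher in CA4-positive cells in both libraries, and the genes that were 2-fold lower included arterial (UNC5B, SEMA3G), lymphatic (LYVE1), mural (MYH11, ACTA2) and basement membrane (LAMA4, LAMB1) genes. A gene was counted as past the fold when it differed at least 2-fold in the same direction in both libraries with at least 50 CPM on its higher side, leaving out the gate genes and the mitochondrial, ribosomal protein and haemoglobin genes. Of 3189 genes compared, 0 were at least 2-fold higher in CA4-positive cells in both libraries (0%) and 38 were at least 2-fold lower (1.19%). Within the CD45neg library alone 6 genes (0.188%) were 2-fold higher and 57 (1.79%) lower, and within the epithelial library alone 8 (0.251%) and 52 (1.63%). At a 1.5-fold rule, chosen after the data were seen, 36 genes were higher in both libraries (1.13%) and 64 lower (2.01%). Within the CD45neg library alone 119 genes (3.73%) were 1.5-fold higher and 125 (3.92%) lower, and within the epithelial library alone 163 (5.11%) and 114 (3.57%). The median ratio over all genes compared was 0.05 in the CD45neg library and 0.08 in the epithelial library. Among cells with 10 or more check-gene UMIs, 0 of 3157 genes were 2-fold higher (0%) and 15 were 2-fold lower (0.475%), 11 of them among the 38. Across the 3189 genes the ratios of the libraries had Pearson r = 0.65 and Spearman rho = 0.37, where genes are not independent replicates and both libraries were gated by the same genes.

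**Figure D3:**
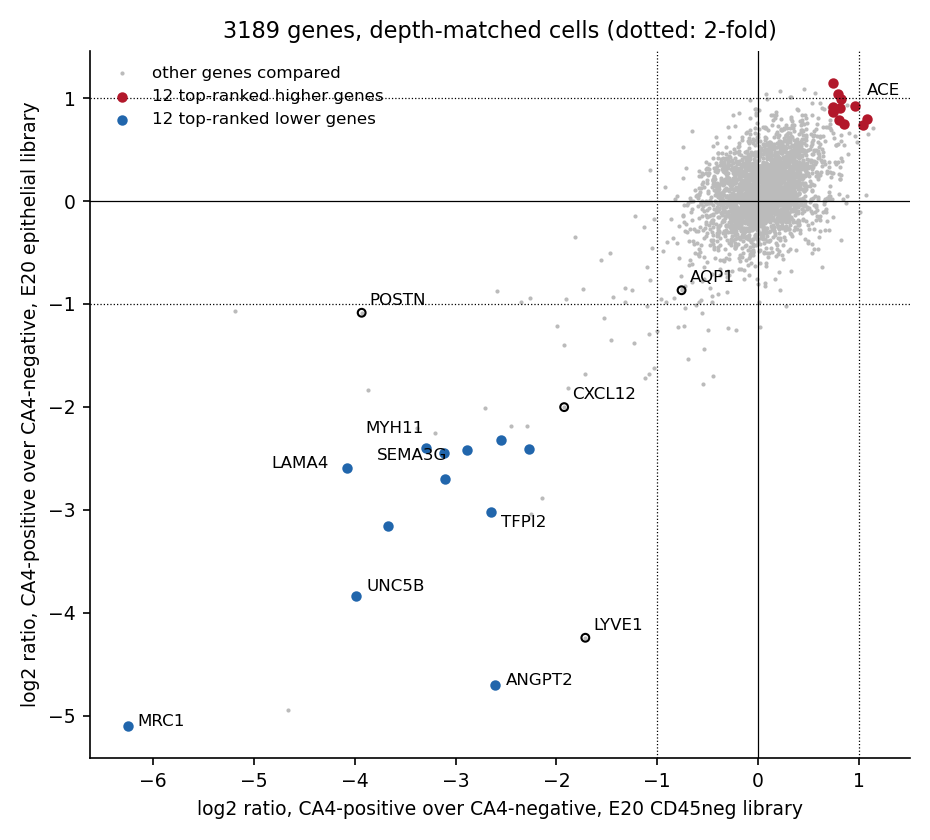
Log2 ratio of CA4-positive over CA4-negative cells in the CD45neg library (horizontal axis) and the epithelial library (vertical axis), 1 point per gene compared, with dotted lines at 2-fold. The points at the lower left stretch to -6.25 and -5.10 for MRC1, which had 0 UMIs in CA4-positive cells of the CD45neg library so that its position there rests on the added 1 CPM, while no gene passes both dotted lines at the upper right.

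Among the genes higher in CA4-positive cells, ACE led. ACE (ENSGALG00000000498, chromosome 27, start 5066557) encodes angiotensin-converting enzyme, another membrane-bound enzyme of the lung capillary surface, which makes angiotensin II and inactivates bradykinin. It stood at 594 CPM in CA4-positive and 306 CPM in CA4-negative cells of the CD45neg library, a log2 ratio of 0.96 (0.73 to 1.19). The epithelial library had it at 538 CPM in CA4-positive and 283 CPM in CA4-negative cells, a log2 ratio of 0.93 (0.75 to 1.11). Cells with 1 or 2 CA4 UMIs lay between, at 460.0 CPM in the CD45neg library and 428 CPM in the epithelial library. After thinning to 2000 UMIs, an ACE UMI was found in 61.5% of CA4-positive and 38.2% of CA4-negative cells of the CD45neg library (77.02% of CA4-positive and 48.1% of CA4-negative cells before thinning). It was found in 62.0% of CA4-positive and 34.7% of CA4-negative cells of the epithelial library (84.2% of CA4-positive and 50.4% of CA4-negative cells before thinning). Collagen cells, which should lack ACE, had it in 1.32% in the CD45neg library and 1.504% in the epithelial library, at medians of 4148.5 and 4726 UMIs per cell. Among cells with 10 or more check-gene UMIs the ratios were 0.76 in the CD45neg library and 0.73 in the epithelial library.

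The other 11 of the 12 top-ranked higher genes had smaller counts and ratios from 0.74 to 1.15. IVNS1ABP, whose product binds actin and the influenza protein NS1, stood at 537 CPM in CA4-positive and 308 CPM in CA4-negative cells of the CD45neg library, and at 493 CPM in CA4-positive and 239 CPM in CA4-negative cells of the epithelial library, log2 ratios of 0.80 (0.57 to 1.03) and 1.04 (0.85 to 1.24). SLCO2A1, the carrier that takes prostaglandins into cells for breakdown, stood at 407 CPM in CA4-positive and 224 CPM in CA4-negative cells of the CD45neg library, and at 361 CPM in CA4-positive and 214 CPM in CA4-negative cells of the epithelial library, log2 ratios of 0.86 and 0.75. WFDC1, a secreted protein with a protease-inhibitor fold, had log2 ratios of 0.81 in the CD45neg library and 0.90 in the epithelial library. CRISPLD1, a secreted protein of the CAP family, had 0.74 and 0.88. These genes were all spread over many cells: at least 13 CA4-negative cells of the CD45neg library and 12 of the epithelial library were needed to hold 50% of the UMIs of any of the 12.

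XRCC3, a DNA repair protein, had log2 ratios of 0.82 in the CD45neg library and 0.99 in the epithelial library. SPRED2, an inhibitor of the RAS and MAP kinase cascade, had 0.74 and 0.92. GNAT3, a G protein subunit known from taste cells, had 0.74 and 1.15. TMEM26 had 1.07 and 0.79, OLFML3 had 0.74 and 0.87, and ZNF366 had 1.04 and 0.74. All 12 top-ranked higher genes stayed higher in both libraries among cells with 10 or more check-gene UMIs, with ratios between 0.45 and 0.93. Those cells come from the same gated cells on which the 12 were ranked. Cells with 1 or 2 CA4 UMIs lay between the sides for 8 of the 12 genes in the CD45neg library and 11 of the 12 in the epithelial library. Cells with 6 or more CA4 UMIs were above those with 3 to 5 for 7 of the 12 in the CD45neg library. In the epithelial library they were for 6 of the 12. The shares over all genes compared were not computed, so no grading with CA4 is read from these counts.

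**Figure D4:**
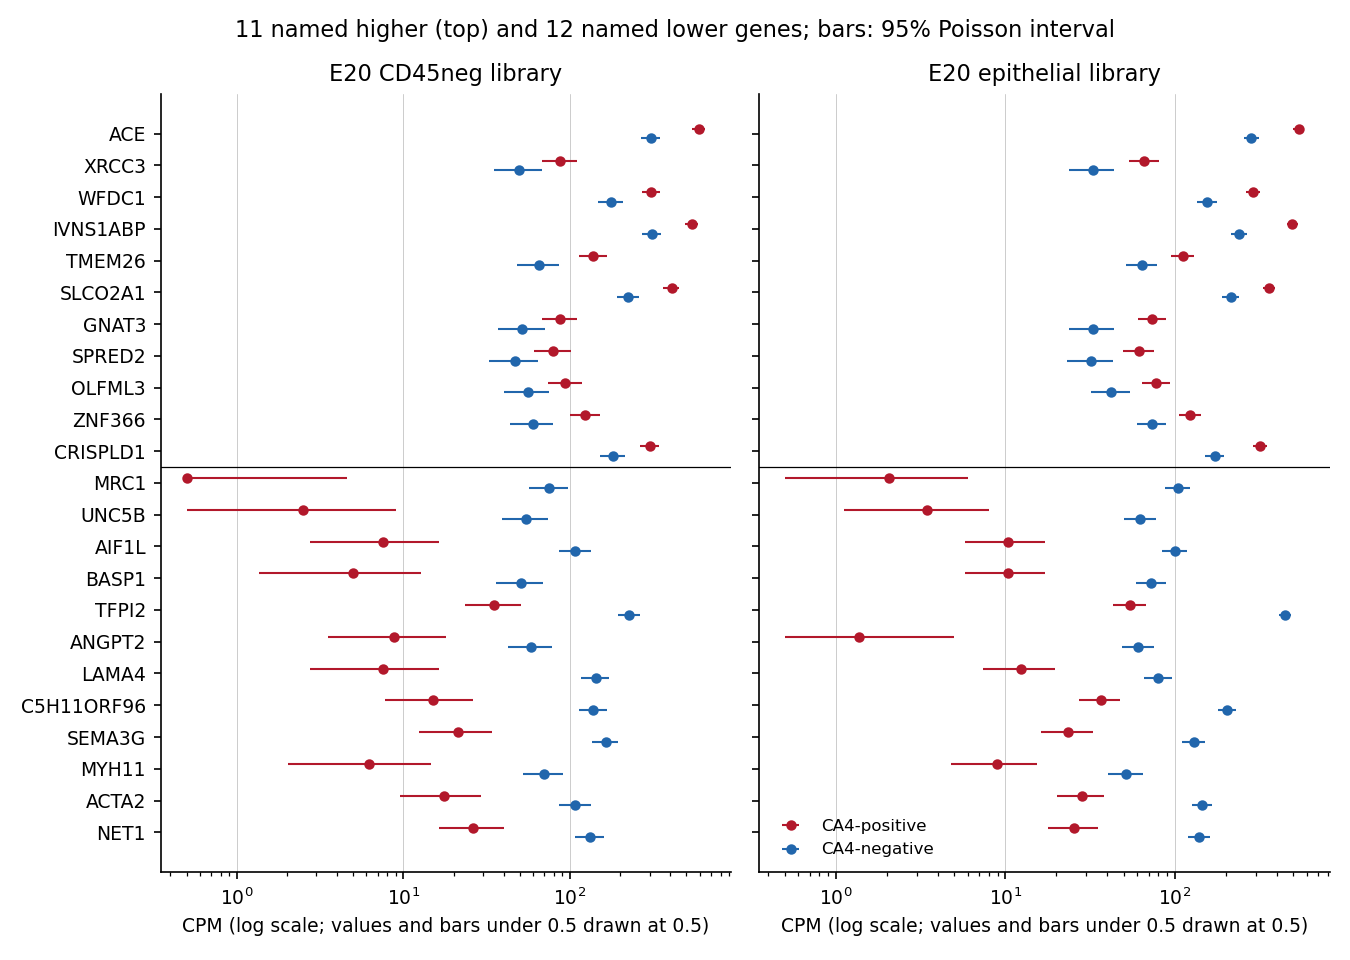
CPM on a log axis (horizontal) of 11 named higher genes (upper rows) and the 12 named lower genes (lower rows) in CA4-positive and CA4-negative cells of each library, with 95% Poisson intervals of the counts. The higher genes have ratios from 0.74 to 1.15, and being ranked by the smaller ratio of the libraries they had to be higher in both. The lower genes range on the CA4-positive side from MRC1, at 0 in the CD45neg library, to TFPI2, at 54.4 CPM in the epithelial library.

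Capillary genes known from mammals were compared next. Lung capillaries of the mouse hold large aerocytes, which carry CA4, EDNRB, APLN and TBX2, and general capillary cells, which carry APLNR, KIT and CD36 and serve as their progenitors. Of the 17 general capillary genes listed, 7 were compared: 5 were higher in CA4-positive cells in both libraries by any amount, where 40.4% of all genes compared were, 1 was lower, and 1 differed in direction between the libraries. The median ratio of the 7 was 0.42 in the CD45neg library and 0.49 in the epithelial library, and 0.27 and 0.37 without the cells with few check-gene UMIs. APLNR, the apelin receptor, stood at 225 CPM in CA4-positive and 127 CPM in CA4-negative cells of the CD45neg library, and at 169 CPM in CA4-positive and 108 CPM in CA4-negative cells of the epithelial library, log2 ratios of 0.82 (0.46 to 1.20) and 0.64 (0.35 to 0.95). LPL, which releases fatty acids from lipoproteins at the vessel wall, had log2 ratios of 0.58 in the CD45neg library and 0.63 in the epithelial library. KIT, the stem cell factor receptor, had 0.64 and 0.47, and its epithelial value was -0.16 with cells limited to 10% mitochondrial UMIs, which left 149 pairs. CD36, a fatty acid carrier, had 0.42 and 0.78. The lower member was CXCL12, a chemokine of general capillary and arterial endothelium, at 30.02 CPM in CA4-positive and 117 CPM in CA4-negative cells of the CD45neg library, and at 20.6 CPM in CA4-positive and 85.7 CPM in CA4-negative cells of the epithelial library.

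The aerocyte list gave no compared member past 1.5-fold in both libraries. Of 20 genes listed, 15 were in the table, the gate or the division used 4, and 4 were compared. EMP2, a membrane protein of lung lining cells, had log2 ratios of 0.10 in the CD45neg library and 0.02 in the epithelial library. HPGD, which inactivates prostaglandins, had -0.07 and -0.24, and CLIC4, an intracellular channel protein, had 0.12 and 0.34. The other compared member, IGFBP7, had -0.07 and 0.34. The median of the 4 was 0.02 in the CD45neg library and 0.18 in the epithelial library, and -0.03 and -0.02 without the cells with few check-gene UMIs. Other members, the markers APLN and TBX2 among them, were too low to compare. APLN, the ligand of APLNR, had 35 UMIs in CA4-positive and 17 in CA4-negative cells of the CD45neg library, and 12 in CA4-positive and 15 in CA4-negative cells of the epithelial library. TBX2, a T-box factor, had 1 UMI in CA4-positive and 17 in CA4-negative cells of the CD45neg library, and 4 in CA4-positive and 16 in CA4-negative cells of the epithelial library. The directions of APLN differed between the libraries, and TBX2 had more UMIs in CA4-negative cells in both. CHST1, examined beside them and found in few cells, was higher in CA4-positive cells. After thinning, 7 of 221 CA4-positive and 1 of 254 CA4-negative cells of the CD45neg library had a CHST1 UMI. Under 20 other settings its log2 ratios ran from 0.65 to 2.50 in the CD45neg library and from 0.84 to 2.54 in the epithelial library. The remaining low members are not described here. Of the genes that defined the gate, EDNRB had log2 ratios of 0.06 in the CD45neg library and 0.30 in the epithelial library, KDR had 0.46 and 0.30, TMEM100 had -0.04 and 0.25, TEK had -0.04 and -0.10, and NOTCH1 had 0.01 and 0.16. The epithelial values of EDNRB and TMEM100 were -0.060 and -0.063 without the cells with markers of other cell types.

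Genes shared by all endothelial cells were slightly higher on the CA4-positive side. Of 16 compared, 11 were higher in both libraries by any amount, where 40.4% of all genes compared were, 1 was lower, where 22.4% were, and none passed 1.5-fold. The counts were 7 higher and 3 lower without the cells with few check-gene UMIs, where 1101 and 716 of all 3157 genes compared were. ERG, an endothelial transcription factor, had log2 ratios of 0.61 in the CD45neg library and 0.56 in the epithelial library. PECAM1, a junction protein, stood at 5669.5 CPM in CA4-positive and 4454 CPM in CA4-negative cells of the CD45neg library, and at 4616 CPM in CA4-positive and 3317 CPM in CA4-negative cells of the epithelial library, log2 ratios of 0.35 and 0.48. CDH5, the endothelial cadherin, had 0.38 and 0.46. Without the cells with few check-gene UMIs the list median was -0.01 in the CD45neg library and 0.20 in the epithelial library, against 0.15 and 0.39 with them. PECAM1 was then at 0.15 and 0.25. The limit is set on PECAM1, CDH5 and the other check genes themselves, and only CA4-negative cells fell under it. Falls in the ratios of these genes therefore follow from the limit and are not read as a result. For the caveolae and barrier genes, which form the small pits and seals of capillary walls, 7 of 8 compared members were higher in both libraries, against the 40.4% of all genes, and none passed 1.5-fold, with medians of 0.35 and 0.38. Without the cells with few check-gene UMIs these medians were 0.15 and 0.20.

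In the Notch pathway, by which neighbouring endothelial cells settle arterial and tip fates, LFNG and DLL4 were the members with the largest positive ratios and JAG2 was lower. LFNG, the glycosyltransferase that tunes Notch for its ligands, stood at 1282 CPM in CA4-positive and 822 CPM in CA4-negative cells of the CD45neg library, and at 1452 CPM in CA4-positive and 880 CPM in CA4-negative cells of the epithelial library. The log2 ratios of LFNG were 0.64 (0.50 to 0.79) and 0.72 (0.62 to 0.83), and after thinning 83.7% of CA4-positive and 62.6% of CA4-negative cells had a UMI in the CD45neg library, and 88.0% of CA4-positive and 69.4% of CA4-negative cells had one in the epithelial library. Before thinning these shares were 90.6% of CA4-positive and 73.2% of CA4-negative cells in the CD45neg library, and 98.3% of CA4-positive and 82.4% of CA4-negative cells in the epithelial library. DLL4, a Notch ligand, had log2 ratios of 0.54 and 0.84, from 41 UMIs in CA4-positive and 27 in CA4-negative cells of the CD45neg library, and 88 in CA4-positive and 46 in CA4-negative cells of the epithelial library. Of 8 Notch genes compared, 4 were higher in both libraries and 3 lower, where 40.4% of all genes compared were higher and 22.4% lower. The lower members were the ligand JAG2, with -0.60 in the CD45neg library and -0.52 in the epithelial library, the ligand DLL1, with -0.19 and -0.66, and the target HEY1, with -0.24 and -0.013. The direction of HEY1 was not stable: under other settings its ratios reached 0.41 and 0.086. The pathway median was 0.07 in both libraries, near the 0.05 and 0.08 of all genes. Among cells with 10 or more check-gene UMIs 7 members were compared, DLL4 no longer among them, and the median was -0.20 in both libraries, where that of all genes was 0.02 and 0.06. LFNG was then at 0.41 and 0.56 and JAG2 at -0.96 and -0.82.

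The BMP and TGF-beta pathway, which keeps pulmonary vessels quiescent, had members on either side. Of 17 members compared, 8 were higher and 4 lower in both libraries, and 5 differed in direction, shares near those of all genes compared (40.4% higher and 22.4% lower). The median was -0.01 in the CD45neg library and 0.31 in the epithelial library, and 0.01 and 0.21 over the 15 compared without the cells with few check-gene UMIs. BMP2, a ligand, stood at 421 CPM in CA4-positive and 312 CPM in CA4-negative cells of the CD45neg library, and at 422 CPM in CA4-positive and 243 CPM in CA4-negative cells of the epithelial library, log2 ratios of 0.43 and 0.79. The receptors BMPR2, with log2 ratios of 0.51 and 0.50, and TGFBR2, with 0.43 and 0.45, had nearly equal ratios in the libraries. TGFB2, a ligand, was the member past 2-fold: it had 12 UMIs in CA4-positive and 58 in CA4-negative cells of the CD45neg library, and 9 in CA4-positive and 80 in CA4-negative cells of the epithelial library. In CA4-negative cells its UMIs were held by few cells, 50% of them by 6 cells in the CD45neg library and by 5 in the epithelial library. Collagen cells outside the gate also carried TGFB2. After thinning, a TGFB2 UMI was found in 68.5% of collagen and 9.84% of CA4-negative cells of the CD45neg library. Under 20 other settings its ratios ran from -3.01 to -1.29 in the CD45neg library and from -3.88 to -1.81 in the epithelial library. PDGFB, the ligand by which endothelium recruits mural cells, was in none of the pathway lists and was chosen after its values were seen: it had log2 ratios of 0.65 (0.47 to 0.83) and 0.63 (0.49 to 0.78).

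The named lower genes had their CA4-negative UMIs in fewer cells than the top-ranked higher ones, with overlap in the epithelial library. Of the 36 with a symbol among the 38 past 2-fold, 33 in the CD45neg library and 24 in the epithelial library had 50% of their CA4-negative UMIs in 10 cells or fewer. For the 12 named lower genes, 50% of the CA4-negative UMIs lay in 3 to 11 cells of the CD45neg library and in 2 to 17 cells of the epithelial library. For the 12 top-ranked higher genes they lay in 13 to 31 and in 12 to 40 cells. Such numbers also depend on the UMI count of a gene, and genes of equal counts were not compared. No share over all genes compared was computed, so these counts are not read as a trait of the lower genes.

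MRC1 led the lower genes. It encodes the mannose receptor, a scavenger receptor of macrophages, liver sinusoids and lymphatic endothelium. It had 0 UMIs in CA4-positive cells and 58 UMIs (75.2 CPM) in CA4-negative cells of the CD45neg library. Set against the 3.75 CPM that a count of 0 over the CA4-positive cells allows (3 counts), it was at least 20.03-fold lower in CA4-positive cells. In the epithelial library it had 3 UMIs in CA4-positive and 143 UMIs in CA4-negative cells, or 2.06 CPM in CA4-positive and 104 CPM in CA4-negative cells, a log2 ratio of -5.10 (-7.95 to -4.08). Its epithelial log2 ratio was -1.77 with cells limited to 10% mitochondrial UMIs, which left 149 pairs, and -0.47 without the cells with arterial or lymphatic markers. Its UMIs came from 16 CA4-negative cells of the CD45neg library and 27 of the epithelial library. LYVE1, the hyaluronan receptor of lymphatic vessels, had 55.03 CPM in CA4-positive and 183 CPM in CA4-negative cells of the CD45neg library, and 17.9 CPM in CA4-positive and 357 CPM in CA4-negative cells of the epithelial library. The log2 ratio of LYVE1 in the CD45neg library, -1.71 with all gated cells, was 0.01 without the cells with few check-gene UMIs, while that of the epithelial library was -4.24 and -3.87. PROX1, the transcription factor that defines lymphatic endothelium, had 4 UMIs in CA4-positive and 20 in CA4-negative cells of the CD45neg library, and 3 in CA4-positive and 72 in CA4-negative cells of the epithelial library. MMRN1, a secreted glycoprotein of lymphatic vessels, had 0 UMIs in CA4-positive cells of both libraries, against 34 in CA4-negative cells of the CD45neg library and 76 in those of the epithelial library. Set against a floor of 3 counts, it was at least 11.7-fold lower in CA4-positive cells of the CD45neg library and 26.7-fold lower in those of the epithelial library. Among cells with 10 or more check-gene UMIs these folds were 4.17, from 12 CA4-negative UMIs, and 22.6, from 64. Such folds, that of MRC1 included, take the CA4-negative level without its counting error. STAB1, another scavenger receptor, had log2 ratios of -0.79 and -1.22. All 4 lymphatic genes that were compared were lower in CA4-positive cells in both libraries, and 22.4% of all genes compared were. Of these 4, 2 were lower in both without the cells with few check-gene UMIs, where 716 of all 3157 genes compared were. The list median was then -0.03 in the CD45neg library and -0.69 in the epithelial library, against -0.67 and -0.80 with all gated cells.

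Arterial genes were the next group. UNC5B, a netrin receptor of arteries, had 2 UMIs in CA4-positive and 42 in CA4-negative cells of the CD45neg library, and 5 in CA4-positive and 86 in CA4-negative cells of the epithelial library, log2 ratios of -3.98 (-7.54 to -2.50) and -3.84 (-5.84 to -2.90). SEMA3G, a semaphorin of arterial endothelium, stood at 21.3 CPM in CA4-positive and 163 CPM in CA4-negative cells of the CD45neg library, and at 23.4 CPM in CA4-positive and 129 CPM in CA4-negative cells of the epithelial library. Cells with 1 or 2 CA4 UMIs lay between, at 97.5 and 61.2 CPM. GJA5, an arterial connexin, had 2 UMIs in CA4-positive and 33 in CA4-negative cells of the CD45neg library, and 6 in CA4-positive and 47 in CA4-negative cells of the epithelial library. GJA4, the connexin of arterioles and capillaries, was more widely spread, at 216 CPM in CA4-positive and 456 CPM in CA4-negative cells of the CD45neg library, and at 202 CPM in CA4-positive and 343 CPM in CA4-negative cells of the epithelial library, log2 ratios of -1.07 and -0.76. Of 7 arterial genes compared, 5 were lower and 2 higher in both libraries, where 22.4% of all genes compared were lower and 40.4% higher, and UNC5B and SEMA3G were the 2 past 2-fold, where 1.19% of all genes were. The list median was -0.59 in the CD45neg library and -0.05 in the epithelial library, and -0.75 and -0.33 over the 5 compared without the cells with few check-gene UMIs. The arterial ratios were as large without the cells with few check-gene UMIs for SEMA3G, at -3.10 and -2.95, and for GJA4, at -1.22 and -0.94. NR2F2, the venous and lymphatic transcription factor, had log2 ratios of -1.32 and -0.84 with all gated cells and -0.55 and -0.61 without those cells. After thinning, an NR2F2 UMI was found in 71.2% of collagen and 21.3% of CA4-negative cells of the CD45neg library.

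Basement membrane genes divided by member. Of 10 compared, LAMA4, LAMB1, AGRN and FN1 were at least 2-fold lower in both libraries, where 1.19% of all genes were. The list median was -1.13 in the CD45neg library and -0.16 in the epithelial library, and -0.06 and 0.08 over the 8 compared without the cells with few check-gene UMIs. LAMA4, the laminin chain of vessel basement membranes, had 6 UMIs in CA4-positive and 110 in CA4-negative cells of the CD45neg library, and 18 in CA4-positive and 110 in CA4-negative cells of the epithelial library, log2 ratios of -4.08 and -2.60. LAMB1, a laminin beta chain, had 21 UMIs in CA4-positive and 92 in CA4-negative cells of the CD45neg library, and 30 in CA4-positive and 218 in CA4-negative cells of the epithelial library. Collagen cells outside the gate also carried both laminins. After thinning, a LAMA4 UMI was found in 73.02% of collagen and 13.4% of CA4-negative cells of the CD45neg library, and in 67.4% of collagen and 8.82% of CA4-negative cells of the epithelial library. A LAMB1 UMI was found in 69.8% of collagen and 13.8% of CA4-negative cells of the CD45neg library, and in 73.4% of collagen and 14.4% of CA4-negative cells of the epithelial library. AGRN, the heparan sulfate proteoglycan agrin, had log2 ratios of -3.20 and -2.25. Without the cells with few check-gene UMIs LAMB1 was at -1.63 and -2.71, LAMA4 at -1.87 and -2.53, AGRN at -0.55 and -1.96, and FN1 at -0.46 and 0.024. HSPG2, the proteoglycan perlecan, was higher in CA4-positive cells, with log2 ratios of 0.41 and 0.36.

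Mural and fibroblast genes were lower in CA4-positive cells of both libraries. Leaving out the cells with few check-gene UMIs, the ratios of DES, ACTA2 and POSTN were near or above 0 in the CD45neg library, and they stayed below 0 in the epithelial library. MYH11, smooth muscle myosin, had 5 UMIs in CA4-positive and 54 in CA4-negative cells of the CD45neg library, and 13 in CA4-positive and 71 in CA4-negative cells of the epithelial library, log2 ratios of -3.29 and -2.40. Among cells with 10 or more check-gene UMIs MYH11 had 5 UMIs in CA4-positive and 0 in CA4-negative cells of the CD45neg library, too few to read a direction from, and 7 in CA4-positive and 29 in CA4-negative cells of the epithelial library, a log2 ratio of -1.95. DES, the muscle filament protein desmin, had log2 ratios of -2.45 and -2.19 with all gated cells, and 0.97 and -1.48 without the cells with few check-gene UMIs. ACTA2, smooth muscle actin, had log2 ratios of -2.55 and -2.32 with all gated cells, and -0.16 and -0.93 without them. POSTN, a matrix protein of fibroblasts, stood at 62.5 CPM in CA4-positive and 968 CPM in CA4-negative cells of the CD45neg library, and at 97.04 CPM in CA4-positive and 207 CPM in CA4-negative cells of the epithelial library. Without the cells with few check-gene UMIs its ratios were 0.49 and -0.75. Summed over the 15 mesenchymal genes, CA4-positive cells had 1264 CPM and CA4-negative cells 2946 CPM in the CD45neg library, and 1588 CPM in CA4-positive and 2175 CPM in CA4-negative cells of the epithelial library. Of these 15 genes 2 were used by the gate, so the sums describe the sides and are not read as a result. Summed over 13 immune genes in the table, CA4-positive cells had 47.5 CPM and CA4-negative cells 86.8 CPM in the CD45neg library, and 226 CPM in CA4-positive and 1967 CPM in CA4-negative cells of the epithelial library. CSF1R, the macrophage growth factor receptor, had 13 UMIs in CA4-positive and 99 in CA4-negative cells of the epithelial library, and 1 in CA4-positive and 0 in CA4-negative cells of the CD45neg library. Without the cells with markers of other cell types 14 of 3177 genes were 2-fold lower in both libraries, 12 of them among the 38. Without the cells with arterial or lymphatic markers 16 of 3138 genes were, all of them among the 38. These marker sets include genes of the 38, such as UNC5B, SEMA3G, CXCL12, LYVE1, DES, ACTA2 and POSTN. Falls in the ratios of such genes follow in part from the removal and are not read as a result.

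The other named lower genes had varied roles. TFPI2, an inhibitor of matrix proteases, stood at 35.02 CPM in CA4-positive and 226 CPM in CA4-negative cells of the CD45neg library, and at 54.4 CPM in CA4-positive and 448 CPM in CA4-negative cells of the epithelial library. In CA4-negative cells 50% of its UMIs came from 3 cells of the CD45neg library and 9 of the epithelial library. Its log2 ratio in the epithelial library, -3.02, was 0.87 with cells limited to 10% mitochondrial UMIs and 0.46 without the cells with arterial or lymphatic markers. The mitochondrial limit left 149 pairs of cells there. ANGPT2, the angiopoietin that loosens vessel walls, had 7 UMIs in CA4-positive and 45 in CA4-negative cells of the CD45neg library, and 2 in CA4-positive and 84 in CA4-negative cells of the epithelial library. NET1, a RHOA activator, was the most widely spread of the 12: its CA4-negative UMIs came from 42 cells of the CD45neg library and 82 of the epithelial library, and its log2 ratios of -2.27 and -2.41 were -2.07 and -2.17 without the cells with few check-gene UMIs. AIF1L, an actin-bundling protein, had log2 ratios of -3.67 and -3.16, and BASP1, a membrane-bound signalling protein known from neurons, had -3.10 and -2.70. C5H11ORF96 had -3.11 and -2.45, and its ratio in the CD45neg library was -0.38 without the cells with few check-gene UMIs. Collagen cells outside the gate also carried these genes. After thinning, a NET1 UMI was found in 32.8% of collagen and 15.7% of CA4-negative cells of the CD45neg library. These shares were 34.4% and 5.12% for BASP1, 65.9% and 9.06% for C5H11ORF96, and 12.4% and 8.27% for ANGPT2. They were lower in collagen cells for AIF1L, at 8.73% and 11.4%, and for TFPI2, at 7.14% and 10.2%.

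NPR3 and AQP1 were lower at high levels. NPR3, the clearance receptor for natriuretic peptides, stood at 416 CPM in CA4-positive and 898 CPM in CA4-negative cells of the CD45neg library, and at 368 CPM in CA4-positive and 748 CPM in CA4-negative cells of the epithelial library, log2 ratios of -1.11 (-1.30 to -0.92) and -1.02 (-1.18 to -0.87). After thinning, an NPR3 UMI was found in 25.8% of CA4-positive and 31.1% of CA4-negative cells of the CD45neg library (31.5% of CA4-positive and 34.1% of CA4-negative cells before thinning), and in 33.0% of CA4-positive and 32.6% of CA4-negative cells of the epithelial library (49.5% of CA4-positive and 38.5% of CA4-negative cells before thinning). The share of cells with a UMI thus differed less than the level, which 8 CA4-negative cells of the CD45neg library and 14 of the epithelial library carried to 50%. AQP1, the water channel of capillary walls, stood at 1346 CPM in CA4-positive and 2278 CPM in CA4-negative cells of the CD45neg library, and at 1251 CPM in CA4-positive and 2282 CPM in CA4-negative cells of the epithelial library. Its log2 ratios were -0.76 (-0.87 to -0.65) and -0.87 (-0.95 to -0.78), and both were larger without the cells with few check-gene UMIs, at -0.89 and -0.95. SLC6A6, the taurine carrier, had log2 ratios of -1.74 and -0.86 with all gated cells and -2.10 and -1.12 without those cells. It was chosen after its values were seen. Collagen cells outside the gate also carried these genes. After thinning, an SLC6A6 UMI was found in 34.7% of collagen and 31.9% of CA4-negative cells of the CD45neg library. These shares were 26.2% and 69.7% for AQP1, and 7.67% and 31.1% for NPR3. CA2, the cytosolic carbonic anhydrase, which red blood cells also express, differed in direction, with 0.10 in the CD45neg library and -0.55 in the epithelial library.

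The genes that were 2-fold lower in both libraries among cells with 10 or more check-gene UMIs were NET1, LAMB1, TFPI2, SLC4A7, RNF152, PLCB4, NPR3, CXCL12, BAG3, ATP13A3, SEMA3G, SLC6A6, AIF1L and a pair of genes without a symbol. They were named after their values were seen. MRC1, UNC5B and GJA5 did not reach the 50 CPM minimum in both libraries there. MRC1 there had 0 UMIs in CA4-positive and 22 in CA4-negative cells of the CD45neg library, at least 7.64-fold lower against a floor of 3 counts over the CA4-positive cells, and a log2 ratio of -4.76 in the epithelial library. The log2 ratios were -3.28 and -3.56 for UNC5B, and -3.54 and -2.75 for GJA5.

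**Figure D5:**
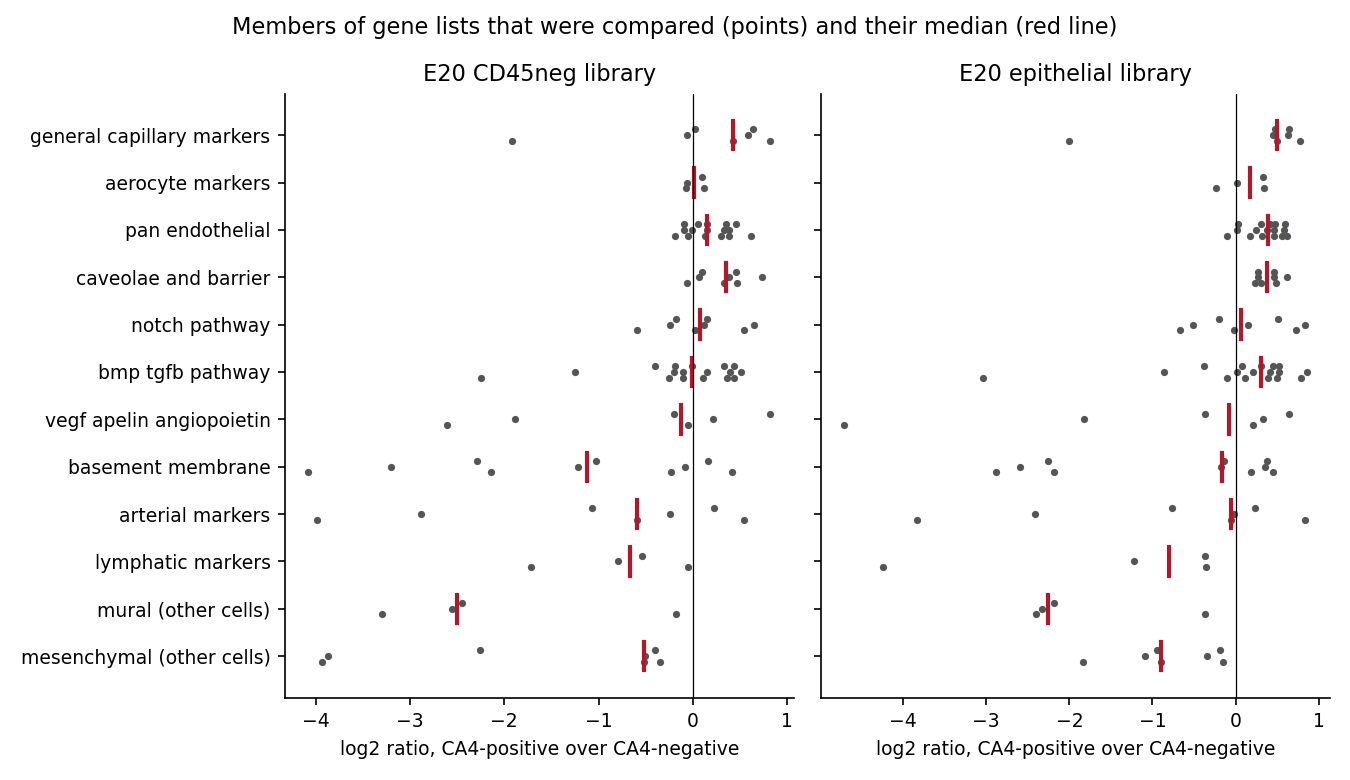
Log2 ratio of CA4-positive over CA4-negative cells (horizontal axis) for the compared members of 12 gene lists (rows), 1 point per gene and a red line at the median, in each library. Most general capillary and barrier genes lie above 0, with CXCL12 far below, and points below -2 in both libraries include TGFB2, ANGPT2, LAMA4, UNC5B and MYH11.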

How the data were processed

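The authors deposited raw UMI counts per gene and barcode. Both E20 count matrices carry Cell Ranger 4.0.0 as their software, per the file headers, and the submitters' processing notes name galGal6, Cell Ranger, Seurat and Signac. The same 24356 genes were listed in both. How barcodes were chosen and whether doublets were removed before deposit is not given in the sources used here. The members and gene lists were chosen with earlier results of these data known.

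Computation used Python 3.11.15 with numpy 2.4.6, pandas 2.3.3 and scipy 1.17.1. CA4-positive cells were paired 1:1 with CA4-negative cells of the same library, deepest first, and UMIs were summed per side. Log2 ratios were taken after adding 1 CPM. Ratio intervals are exact conditional binomial, level intervals exact Poisson, and shares exact Clopper-Pearson. Named genes had a symbol, at least 50 CPM on the higher side in both libraries and the same direction in both, ranked by the smaller absolute ratio, 12 per direction, of which 1 higher gene is not reported here. From each list the members with the largest ratios and defining markers were named, and any other gene was chosen after its values were seen. Doublets were removed only in an alternative, with a simulated-pair score (scikit-learn 1.9.0). The comparison was tested on simulated data. No test was run, because the libraries are different preparations and not replicates. Even with the 2 libraries taken as pairs, an exact permutation test could not go below a two-sided p of 0.5. Of 20 alternatives, 4 were added after the data were seen.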

Additional observations from a re-analysis of the deposited data

Results flagged for a closer look

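Several genes went one way in the CD45neg library and the other way in the epithelial library, with counting intervals that did not reach 0 in either. The difference between the libraries was not tested, since each is 1 sample. COL4A1, a collagen of basement membranes, had a log2 ratio of CA4-positive over CA4-negative cells of -0.089 in the CD45neg library and 0.38 in the epithelial library. SPARC, a matrix-binding protein, had -0.23 and 0.18. ID1, a target of BMP signalling, had -0.26 and 0.21, and EGR1, an immediate early gene, had -0.24 and 0.28. The haemoglobin genes went the opposite way: HBBA had 0.19 and -0.34, HBAD had 0.21 and -0.43, and HBA1 had 0.18 and -0.39. The gate limited the share of these 3 genes to under 10% of UMIs, so their ratios are described and not read as a result. ITGA2B, an integrin of thrombocytes, had 1.91 in the CD45neg library, from 10 UMIs in CA4-positive and 2 in CA4-negative cells, and -0.66 in the epithelial library, from 100 UMIs in CA4-positive and 151 in CA4-negative cells.

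CA4 was also found outside the gate. In the CD45neg library 23 cells that passed the quality limits had 3 or more CA4 UMIs but failed the gate, 12 of them because the gate genes summed to under 3 UMIs and 9 because of haemoglobin. In the epithelial library 50 such cells were found, 25 of them with an EPCAM UMI. All 23 and all 50 had at least 3 UMIs of the check genes PECAM1, CDH5, TIE1, FLT1, EGFL7 and CLDN5.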

How the results depend on the processing

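Each result was recomputed under 20 other settings. All 12 top-ranked higher genes stayed higher in both libraries under every one, with log2 ratios between 0.45 and 1.31 in the CD45neg library and between 0.38 and 1.24 in the epithelial library. Of the 12 named lower genes, 10 stayed lower in each library. Both sets of 12 were ranked on these same gated cells, and the settings largely reuse them. Settings that change only the CPM minimum cannot change a ratio. These counts describe the dependence on processing and are not separate support for the genes. The count of genes at least 2-fold higher in both libraries, 0 as reported, was 3 with a minimum of 20 CPM (HGF, TMTC1 and THSD1), 128 with no minimum, 2 with CA4-positive cells at 5 or more UMIs (GNAT3 and ACE) and 1 with COL1A1 and COL1A2 at 0 (a gene without a symbol). The count of lower genes, 38 as reported, was 109 with a minimum of 20 CPM, 16 with 100 CPM, 622 with no minimum, 59 when totals left out mitochondrial, ribosomal protein and haemoglobin genes (3937 genes then reached the minimum), 20 with a mitochondrial limit of 10% and 15 with COL1A1 and COL1A2 at 0. It was also 15 with 10 or more check-gene UMIs, 14 without cells with other-cell markers and 16 without cells with arterial or lymphatic markers, settings chosen after seeing the data. Fewer genes were compared under a higher minimum, and for the other settings the cause was not tested. The mitochondrial limit of 10% left 209 pairs of cells in the CD45neg library and 149 in the epithelial library.

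Direction changed for some values, and the list below is not complete for small ratios. Across the settings HEY1 reached 0.41 in the CD45neg library and 0.086 in the epithelial library. In the CD45neg library IGFBP7 reached 0.38 and HPGD 0.092. EMP2 fell to -0.16 in the CD45neg library and -0.18 in the epithelial library. With a mitochondrial limit of 10% the epithelial ratios of TFPI2, TMEM100 and KIT were 0.87, -0.077 and -0.16. With COL1A1 and COL1A2 at 0 the CD45neg ratios of C5H11ORF96, MYH11, POSTN, DES and COL4A1 were 0.11, 1.97, 0.74, 1.32 and 0.18, the basement membrane median there was 0.0034, and the epithelial ratio of TBX2 was 0.53. With a gate on the check genes COL4A1 in the CD45neg library was 0.16. With 10 or more check-gene UMIs the CD45neg ratios of MYH11, LYVE1, COL4A1, POSTN and DES were 2.93 (from 5 UMIs in CA4-positive and 0 in CA4-negative cells), 0.0075, 0.16, 0.49 and 0.97, the medians of the Notch list were -0.195 and -0.200, and the epithelial ratios of TMEM100 and CSF1R were -0.065 and 1.68. Without cells with other-cell markers the epithelial ratios of ACTA2, EDNRB and TMEM100 were 0.14, -0.060 and -0.063, the Notch medians were -0.058 and -0.067, and the CD45neg ratios of COL4A1 and POSTN were 0.17 and 0.59. Without cells with arterial or lymphatic markers TFPI2 in the epithelial library was 0.46, PROX1 in the CD45neg library 0.30, and LYVE1 1.39 and 0.063. ACTA2, POSTN, PROX1 and LYVE1 are among the markers by which these cells were removed, so their changes follow in part from the removal. Every ratio is already within a library, the labels give no replicate numbers, and no fit across both libraries was run. Depth limits genes under 50 CPM, where a side of the CD45neg library holds few UMIs.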
